A study of Mus musculus with 10 samples.

Results

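The genes described here were 10 imprinted genes of the mouse, chosen by name, out of 19384 genes that had at least 1 measured 3′ region in the series. Peg3, Peg10, Mest, Dlk1, Plagl1 and Igf2 are expressed from the paternal allele, and Cdkn1c, Grb10, Igf2r and Phlda2 from the maternal allele. They accounted for 27 of 43031 deposited features. A feature was the annotated 3′UTR of a transcript plus 2 kb of downstream sequence, and features with identical coordinates and strand were summed into 1 site, which left 13 sites for the 10 genes among 28730 sites in all.

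In genomic imprinting, a gene is expressed mainly from the copy inherited from one parent, because DNA methylation laid down in the egg or the sperm marks the parental copies differently. Imprinted genes lie in clusters that share a control region, and many of them act on fetal growth, with paternally expressed genes often promoting growth and maternally expressed genes often restraining it. Embryonic stem cells (ESC) carry these marks, and the marks and the levels of imprinted genes are known to vary between ESC lines and with culture. The RNA-seq measured total level and not which allele was read.

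RNA-seq was performed on mouse ESC labelled C57BL/6 that were cultured with fetal calf serum and LIF, on mitomycin C-treated embryonic fibroblast feeders or on gelatin. The wild-type (WT) group was compared with DIDO3ΔE16 ESC, which lack the DIDO3-specific exon16 after Cre deletion of the floxed exon through a Sox2-Cre transgene, and with DIDO3ΔCT+HADIDO3 ESC, which carry the C-terminal deletion of DIDO3 and were reconstituted with HA-tagged DIDO3. DIDO3 is the largest protein isoform of Dido1 and has been linked to transcription termination, so the deletion was compared with WT and with the reconstituted line at 3′ gene ends. Each group held 3 libraries, since 2 of the 4 WT samples carried the same library identifier and 1 file and were counted once. No unreconstituted DIDO3ΔCT library was analysed here, and the sources used here do not say whether a line was 1 clone or whether libraries came from separate cultures, so that p-values measure only the spread between these libraries.

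The libraries held 1.46 to 2.61 Gb of bases within the features. At Dido1, 1 site held 13.7 to 17.9 TPM (abundance per transcript length, scaled to the same total in each library) in the WT libraries and 0.307 to 0.546 in DIDO3ΔE16, and another held 4.78 to 4.90 in WT and 81.7 to 96.1 in DIDO3ΔE16, whereas DIDO3ΔCT+HADIDO3 held 10.9 to 12.1 and 7.30 to 8.65 TPM at these sites. All 10 ESC markers examined were detected in every library, with a summed level of 5147 to 6376 TPM in WT, 6723 to 7208 in DIDO3ΔE16 and 5249 to 7164 in DIDO3ΔCT+HADIDO3. These sums were not compared between groups, since single markers varied widely within a group (Esrrb from 5.18 to 1155 TPM in WT). At their sites with the highest mean, the 4 Y-linked genes examined (Ddx3y, Eif2s3y, Kdm5d and Uty) were listed at 0 in all 3 DIDO3ΔCT+HADIDO3 libraries. They summed to 28.2 to 36.5 TPM in WT and 21.1 to 45.2 TPM in DIDO3ΔE16, where the Ddx3y site was at 0 in replicate 3. Summed over all its features, Ddx3y was above 0 in DIDO3ΔCT+HADIDO3, but at a log2 fold change of -7.40 against WT (limma adjusted p = 4.79e-05). Genotype in the comparisons with DIDO3ΔCT+HADIDO3 therefore cannot be told apart from this difference between the lines.

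The 3′ ends below are annotated transcript ends of 6 of the genes that the results turn on. Each run is 30 bases at or within a few bases of the annotated transcript end (GENCODE release M21, GRCm38, which is mm10), read 5′ to 3′ on the strand of the gene. Capitals mark the copy of the poly(A) signal AATAAA nearest to the end of the run. The Peg3 and Grb10 runs hold an earlier copy in small letters, and which copy is used was not tested. AATAAA was present in the last 50 bases of 66.9% of 20417 annotated coding transcript ends that lay within 10 bases of where the 3′UTR of a feature ended.
Dlk1, chr12:109463307-109463336 (+): ttattgttaAATAAAggaacaagggcttta
Plagl1, chr10:13131664-13131693 (+): ctacatatAATAAAtgctaagcatctggca
Igf2, chr7:142650769-142650798 (-): tcgcaaacctAATAAAgcatttaaaatact
Peg3, chr7:6703892-6703921 (-): tcaataaaAATAAAgttaaaaataagataa
Grb10, chr11:11930508-11930537 (-): gttattagaaataaacattAATAAAgcgtt
Phlda2, chr7:143501555-143501584 (-): tcattccaAATAAAcaatgtcacttttctt

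For 5 of these 6 genes the transcript ended 0 to 9 bases from the 3′UTR end of a feature, and the following 2000 bases were added by the authors. At Peg3 it ended 2068 bases beyond the 3′UTR end, so that all 2000 added bases were annotated Peg3 exon and the printed bases lie just past the measured site. Plagl1 had sites with both of its annotated ends, and 733 of the 2000 bases added to the shorter one were Plagl1 exon. The printed Plagl1 end is that of the longer site. Plagl1 levels below, other than gene sums, are those of the shorter site, in whose added stretch the printed bases lie. Cdkn1c had an internal site whose added stretch held 1405 bases of Cdkn1c exon.

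In the plot of levels by library, Peg10 was at 535 ± 19.5 TPM (SD, n = 3), Peg3 at 248 ± 11.3, Mest at 156 ± 9.82, Igf2r at 73.0 ± 2.40 and Plagl1 at 37.6 ± 2.99 TPM in WT. Dlk1 was at 0.366 ± 0.0148 TPM, and Cdkn1c at 38.3 ± 1.67 TPM summed over its sites. The WT libraries of Igf2, Phlda2 and Grb10 lay 2.99-fold, 2.56-fold and 120-fold apart. TPM is a value per length of the site, and the share of the site that is annotated transcript differed between genes: Phlda2 had 268 bases of 3′UTR in a site of 2268 bases, while the whole site of Peg3 was exon. These levels were therefore compared between groups for each gene and not ranked between genes.

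**Figure D1:**
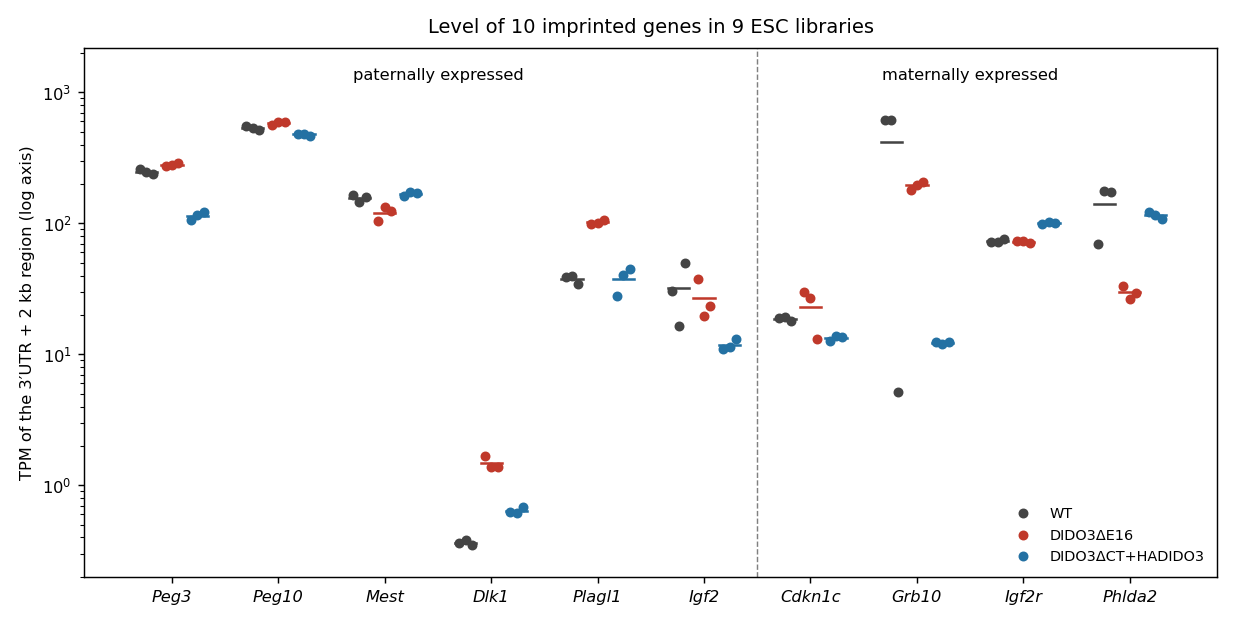
Level of each imprinted gene (TPM, log axis) in the 9 libraries, at the site of each gene with the highest mean; points are libraries and bars are group means of WT (grey), DIDO3ΔE16 (red) and DIDO3ΔCT+HADIDO3 (blue). Plagl1 and Dlk1 are highest in DIDO3ΔE16, Phlda2 is lowest there, Peg3 is lowest in DIDO3ΔCT+HADIDO3, and 1 WT library at Grb10 lies far below the other two.

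In DIDO3ΔE16 compared to WT, 3 of the 10 genes were altered: Dlk1 and Plagl1 rose and Phlda2 fell. Calls of altered sites needed a log2 fold change of 0.7 or more in size together with an adjusted p below 0.05 (limma on log2 of scaled TPM plus 0.1, 2-sided, Benjamini-Hochberg over all sites tested). By the same rule 15.1% of all 21063 sites tested were altered, 10.2% being higher and 4.94% lower in DIDO3ΔE16. An adjusted p below 0.05 at any fold was reached by 4 of the 10 genes, against 33.2% of all sites. The values of the groups did not overlap at 6 of the 10 genes, against 49.4% of all sites.

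Dlk1 encodes a transmembrane protein related to Notch ligands and gives its name to the Dlk1-Dio3 imprinted cluster. Its level was 0.362, 0.382 and 0.353 TPM in the WT libraries, 1.66, 1.37 and 1.38 TPM in DIDO3ΔE16 and 0.629, 0.610 and 0.685 TPM in DIDO3ΔCT+HADIDO3. The 3 groups did not overlap, with WT lowest and DIDO3ΔE16 highest. The log2 fold change was 1.70 ± 0.17 (SE) in DIDO3ΔE16 against WT, with a limma adjusted p of 0.00199, and it was 1.91 with a pseudocount of 0.01 and 0.83 with 1. In DIDO3ΔCT+HADIDO3 against WT it was 0.58 ± 0.16 (limma adjusted p = 0.0384), which is under the fold required. In bulk RNA, fewer cells of a type and less RNA per cell cannot be told apart. The 10 fibroblast markers examined, which the feeder layer could bring, were each taken at the site with the highest mean. They summed to 655 to 721 TPM in WT, 229 to 738 in DIDO3ΔE16 and 667 to 696 in DIDO3ΔCT+HADIDO3. In DIDO3ΔE16, 6 of 9 tested rose, and their part in the level of Dlk1 was not tested. Dlk1 levels were low: 1031 to 4371 sequenced bases per library stood behind them, over a site of 4976 bases.

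Plagl1 encodes a zinc finger transcription factor that restrains proliferation. It held 39.2, 39.6 and 34.2 TPM in the WT libraries, 99.2, 99.9 and 107 TPM in DIDO3ΔE16 and 27.8, 40.1 and 45.2 TPM in DIDO3ΔCT+HADIDO3. Every DIDO3ΔE16 library was above every other library, and the reconstituted line overlapped WT. Plagl1 rose by 1.37 ± 0.06 (SE) on the log2 scale in DIDO3ΔE16 against WT, with a limma adjusted p of 0.000269. In DIDO3ΔCT+HADIDO3 the log2 fold change was -0.13 ± 0.18 (limma adjusted p = 0.621).

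Phlda2 encodes a pleckstrin homology domain protein that restrains growth of the placenta. It was measured at 69.5, 178 and 172 TPM in the WT libraries, 33.4, 26.3 and 29.5 TPM in DIDO3ΔE16 and 122, 117 and 108 TPM in DIDO3ΔCT+HADIDO3. All DIDO3ΔE16 libraries were below all others, and the lowest WT library stood apart from the other two. The log2 fold change of DIDO3ΔE16 against WT was -2.18 ± 0.43 (SE), with a limma adjusted p of 0.0176. Without DIDO3ΔE16 replicate 1, 2 or 3, WT replicate 4 or the shared library of WT replicates 2 and 3, the fall was 1.95 to 2.27 on the log2 scale and the adjusted p rose to between 0.0519 and 0.0639. Without WT replicate 1 the log2 fold change was -2.64 (limma adjusted p = 0.00145).

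The libraries of WT replicates 1 and 4 carried flow cell identifiers that differ from each other but share their first 4 characters, and those of the other 7 libraries share another start. Whether such a start marks a sequencing batch is not stated in the sources used here. Against the single WT library whose identifier starts like those of the mutants, which was taken to vary like the mutant libraries, Plagl1 was higher in DIDO3ΔE16 by 1.29 (log2, limma adjusted p = 0.00296) and Dlk1 by 1.64 (adjusted p = 0.0419), and Phlda2 was at -2.66 (adjusted p = 0.00552). With the start of the identifier as a covariate Phlda2 was at -2.65 with an adjusted p of 0.0586.

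The paternally expressed Peg3, Peg10 and Mest and the maternally expressed Igf2r were not altered in DIDO3ΔE16. Mest, which encodes a hydrolase-fold protein, held 165, 146 and 159 TPM in the WT libraries and 104, 133 and 125 TPM in DIDO3ΔE16, and its log2 fold change of -0.45 ± 0.10 (SE; limma adjusted p = 0.0232) was under the fold required. Peg3, a zinc finger protein, was at a log2 fold change of 0.11 ± 0.03 (SE; limma adjusted p = 0.0578), Peg10, derived from a retrotransposon, at 0.06 ± 0.03 (adjusted p = 0.174), and Igf2r, the receptor that clears the growth factor IGF2, at -0.07 ± 0.045 (adjusted p = 0.309). Igf2, Cdkn1c and Grb10 did not pass the test either, and their libraries or features were spread unevenly.

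In DIDO3ΔCT+HADIDO3 compared to WT, Peg3 was the 1 gene of the 10 that was altered, against 17.3% of all 20879 sites tested. It was lower, as were 7.24% of all sites, while 10.1% were higher. The groups did not overlap at 6 of the 10 genes, against 53.5% of all sites. Peg3 was measured at 260.5, 246 and 238 TPM in the WT libraries, 274, 278 and 288 TPM in DIDO3ΔE16 and 106, 115 and 123 TPM in DIDO3ΔCT+HADIDO3. The reconstituted line was below every WT and DIDO3ΔE16 library. Peg3 fell by 1.22 on the log2 scale (SE 0.05, limma adjusted p = 0.000165), and by 1.21 against the WT library whose flow cell identifier starts like those of the mutants (adjusted p = 0.00814).

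Smaller differences between DIDO3ΔCT+HADIDO3 and WT passed the adjusted p but not the fold, and 5 of the 10 genes had an adjusted p below 0.05 at any fold, against 38.4% of all sites. Igf2r was measured at 71.8, 71.5 and 75.8 TPM in WT and 99.0, 103 and 101 TPM in DIDO3ΔCT+HADIDO3, a log2 fold change of 0.36 ± 0.045 (SE; limma adjusted p = 0.00304). Peg10 was at -0.26 ± 0.04 (SE; limma adjusted p = 0.00583). Cdkn1c, which encodes the cyclin-dependent kinase inhibitor p57Kip2, was at -0.59 ± 0.05 (SE; limma adjusted p = 0.00108). Mest did not differ beyond its error (0.00 ± 0.06, SE; limma adjusted p = 0.959).

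The direct comparison of the lines, DIDO3ΔE16 against DIDO3ΔCT+HADIDO3, altered 6 of the 10 genes, against 27.4% of all 21172 sites tested. Peg3, Dlk1, Plagl1, Igf2 and Grb10 were higher in DIDO3ΔE16 and Phlda2 was lower, beside 13.9% of all sites higher and 13.4% lower. An adjusted p below 0.05 at any fold was reached by 9 of the 10 genes, against 49.2% of all sites. The log2 differences were 1.31 for Peg3 (limma adjusted p = 4.74e-05), 1.10 for Dlk1 (0.00343), 1.48 for Plagl1 (0.00156) and 1.16 for Igf2 (0.0158). Grb10 differed by 4.0 (limma adjusted p = 9.59e-06) and Phlda2 by -1.94 (0.000164). The call was lost for Dlk1 with a pseudocount of 1 (0.60, under the fold required) and for Plagl1 by its most abundant single feature (1.93, limma adjusted p = 0.0565). The single-feature value depends on how reads were split between identical features. The groups did not overlap at 9 of the 10 genes, Cdkn1c being the exception, against 61.6% of all sites.

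**Figure D2:**
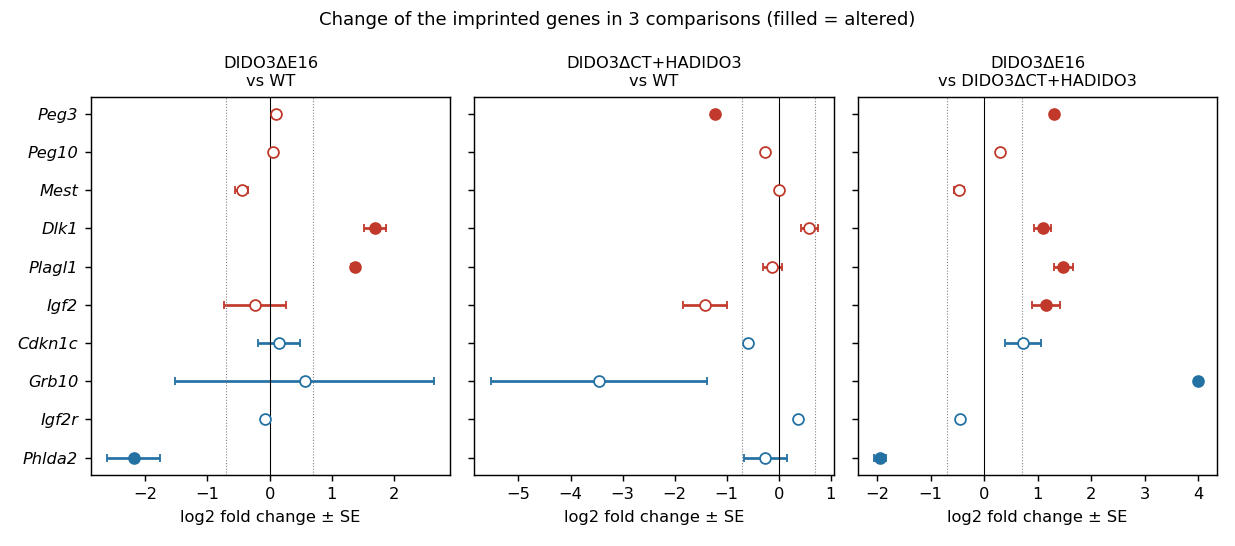
Log2 fold change with its standard error (x axis) of each imprinted gene in the 3 comparisons, paternally expressed genes in red and maternally expressed genes in blue; filled points were altered and dotted lines mark the fold required. The filled points number 3, 1 and 6 from left to right, and the widest bars are those of Grb10 in both comparisons with WT.

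Grouped by parental origin and taken at the site with the highest mean, the genes of a group did not all move one way. Among the 6 paternally expressed genes, 2 rose and 0 fell in DIDO3ΔE16 (median log2 fold change 0.08), and 0 rose and 1 fell in DIDO3ΔCT+HADIDO3 (median -0.20). Among the 4 maternally expressed genes, 0 rose and 1 fell in DIDO3ΔE16 (median 0.04), and none rose or fell in DIDO3ΔCT+HADIDO3 (median -0.43, with 2 of 4 at a limma adjusted p under 0.05). The median over all sites tested was -0.01 in both comparisons. The maternal medians take in the internal site of Cdkn1c and the widely spread WT libraries of Grb10. By gene sum Cdkn1c was at -0.62 in DIDO3ΔE16, and Grb10 was at -1.72 there without WT replicate 4. Igf2r was at -0.07 and Phlda2 at -2.18. The maternal median near 0 in DIDO3ΔE16 therefore depends on how Cdkn1c and Grb10 are taken. In the direct comparison the median was 1.13 over the 6 paternally expressed and 0.14 over the 4 maternally expressed genes, beside 0.01 over all sites.

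Grb10, Igf2, Cdkn1c and Plagl1 had several features over the same bases, and the libraries assigned reads to them in different ways. Among sites that reached 10 TPM in some library, 22.97% of those listing several features with the same coordinates had libraries of the same group more than 10-fold apart, against 0.338% of sites with 1 feature that shared no base with another on the strand. The plot of TPM by feature shows the split at these genes.

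**Figure D3:**
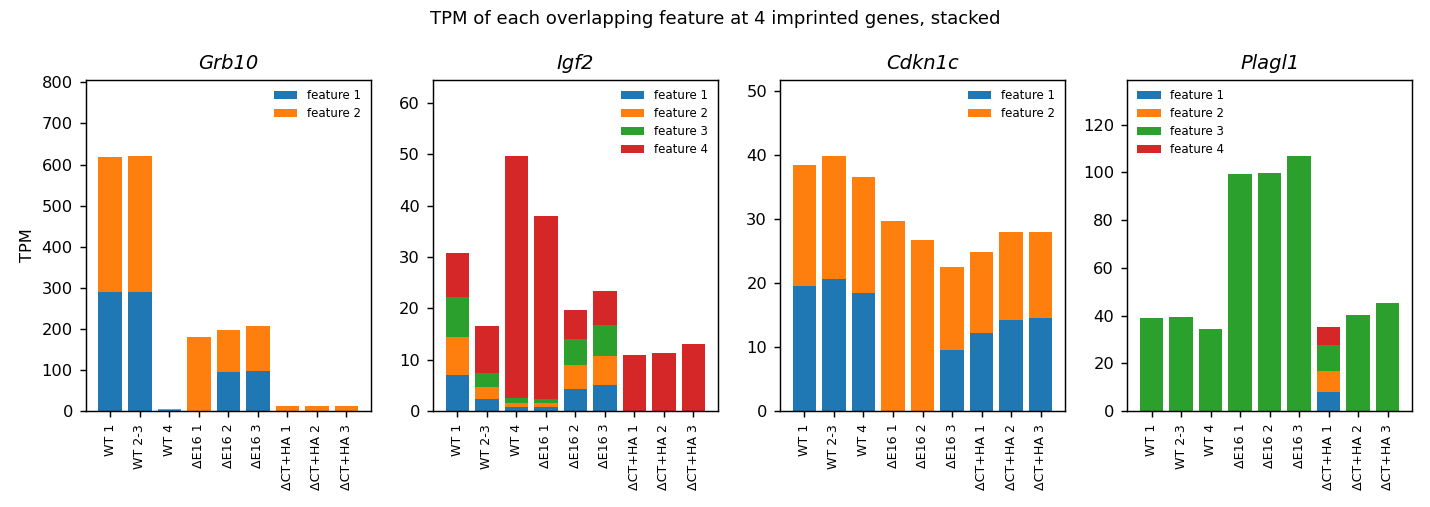
TPM (y axis) of each feature with a value above 0 at Grb10, Igf2, Cdkn1c and Plagl1 in the 9 libraries (x axis), stacked. Bars sum to the level of the gene; the colors number the features within a gene, which share all bases at Grb10 and Igf2 and part of their bases at Cdkn1c and at feature 4 of Plagl1.

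Grb10 encodes an adaptor protein that restrains insulin and IGF receptor signalling. Its site, which sums 2 features, was listed at 619, 620.2 and 5.19 TPM in the WT libraries, 181, 198 and 208 TPM in DIDO3ΔE16 and 12.5, 11.97 and 12.4 TPM in DIDO3ΔCT+HADIDO3. Of its features, 1 held 290.4, 289 and 2.38 TPM in the WT libraries, 0.193, 94.1 and 97.0 TPM in DIDO3ΔE16 and 0 in all DIDO3ΔCT+HADIDO3 libraries. WT replicate 4 lay below every mutant library and the other WT libraries lay above them. With all WT libraries, Grb10 was not altered in either mutant (0.56 ± 2.07, SE, limma adjusted p = 0.865 in DIDO3ΔE16; -3.46 ± 2.08, adjusted p = 0.259 in DIDO3ΔCT+HADIDO3). Without WT replicate 4 the log2 fold change was -1.72 in DIDO3ΔE16 (limma adjusted p = 0.000819) and -5.74 in DIDO3ΔCT+HADIDO3 (adjusted p = 0.000168).

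Grb10 was 1 of 190 sites that were more than 10-fold lower in WT replicate 4 than in both other WT libraries, out of 10302 sites at 10 TPM or more in those. Of these sites, 121 listed several features. WT replicate 1 had 192 such sites and the shared library of WT replicates 2 and 3 had 171. Nanog, a pluripotency factor whose site sums 4 features, was listed at 664, 676 and 3.10 TPM in the WT libraries, and at 769 TPM or more in all 6 mutant libraries. The direct comparison of the mutants uses no WT library, and there Grb10 was 15.9-fold higher in DIDO3ΔE16 by the ratio of means, although a fit of all 9 libraries, which takes in the spread of WT, gave an adjusted p of 0.0989 (limma).

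Igf2 encodes insulin-like growth factor 2. Its level over 4 identical features was 30.7, 16.6 and 49.6 TPM in the WT libraries, 37.9, 19.7 and 23.4 TPM in DIDO3ΔE16 and 10.98, 11.3 and 13.0 TPM in DIDO3ΔCT+HADIDO3. Every DIDO3ΔCT+HADIDO3 library was below every other library, while WT and DIDO3ΔE16 overlapped. Of 6 fibroblast markers tested in that line against WT, Pdgfrb and Thy1 rose and Col1a1 and Col1a2 fell, and the part of such cells in the level of Igf2 was not tested. Against WT, DIDO3ΔCT+HADIDO3 was at -1.42 ± 0.42 (SE), with a limma adjusted p of 0.0511, and DIDO3ΔE16 at -0.24 ± 0.50 (adjusted p = 0.751). Against the WT library whose identifier starts like those of the mutants the values were -0.60 (limma adjusted p = 0.0489) and 0.57 (adjusted p = 0.502). In the direct comparison the call was lost without DIDO3ΔCT+HADIDO3 replicate 1 or 2 (log2 difference 1.12 in both, limma adjusted p = 0.0533 and 0.0534).

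In all 3 DIDO3ΔCT+HADIDO3 libraries the whole level of Igf2 stood on 1 of the 4 features, at 10.98 to 13.0 TPM, and the other three were listed at 0. In WT and DIDO3ΔE16 the same feature held 5.55 to 47.0 TPM. When Igf2 was taken by this feature alone, the direct difference between the mutants was -0.07 with a limma adjusted p of 0.955, and the call was lost. Reads are split arbitrarily between features with identical coordinates, so this value does not test the summed difference.

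Cdkn1c had an internal site at 18.9, 19.2 and 18.1 TPM in the WT libraries, 29.7, 26.8 and 13.0 TPM in DIDO3ΔE16 and 12.7, 13.8 and 13.5 TPM in DIDO3ΔCT+HADIDO3. The site at its annotated 3′ end held 19.6, 20.6 and 18.4 TPM in the WT libraries, was listed at 0 in DIDO3ΔE16 replicates 1 and 2 and at 9.54 TPM in replicate 3, and held 12.2, 14.3 and 14.6 TPM in DIDO3ΔCT+HADIDO3. Summed over both sites, Cdkn1c was at 36.5 to 39.8 TPM in WT, 22.6 to 29.7 TPM in DIDO3ΔE16 and 24.9 to 28.1 TPM in DIDO3ΔCT+HADIDO3, so that both mutants were below WT. For the sum, the log2 fold change was -0.62 ± 0.12 (SE; limma adjusted p = 0.0112) in DIDO3ΔE16 and -0.59 ± 0.06 (adjusted p = 0.00136) in DIDO3ΔCT+HADIDO3, both under the fold required. For Plagl1, 1 overlapping site at a second end was above 0 in DIDO3ΔCT+HADIDO3 replicate 1 only (7.33 TPM), and the gene sum gave a log2 fold change of 1.36 in DIDO3ΔE16 (limma adjusted p = 0.000201) and 0.00 in DIDO3ΔCT+HADIDO3 (adjusted p = 0.974).

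Neighbors in the same imprinted clusters were compared next, as the listed imprinted genes within 1 Mb of each gene. Dio3, the type 3 deiodinase that inactivates thyroid hormone, lies 815 kb from Dlk1 at the other end of the cluster. It was measured at 8.03, 7.54 and 7.04 TPM in the WT libraries, 67.9, 65.2 and 71.0 TPM in DIDO3ΔE16 and 4.204, 5.57 and 4.84 TPM in DIDO3ΔCT+HADIDO3. The groups did not overlap, and Dio3 rose by 3.10 ± 0.06 (SE, log2) in DIDO3ΔE16 (limma adjusted p = 4.33e-05) and fell by 0.73 in DIDO3ΔCT+HADIDO3 (adjusted p = 0.00791). Rtl1, the retrotransposon-derived gene between them, was below 1 TPM in every library and did not pass the test (0.94, limma adjusted p = 0.163, in DIDO3ΔE16, and 1.301, adjusted p = 0.117, in DIDO3ΔCT+HADIDO3).

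In the Kcnq1ot1 cluster on chromosome 7, which holds Cdkn1c and Phlda2, the noncoding RNA Kcnq1ot1 is made from the paternal copy and is known to silence its neighbors there. Kcnq1ot1 held 0.894, 0.877 and 0.769 TPM in the WT libraries, 1.90, 1.90 and 1.86 TPM in DIDO3ΔE16 and 2.52, 2.69 and 2.95 TPM in DIDO3ΔCT+HADIDO3. It rose in both mutants, by 1.01 (log2, limma adjusted p = 0.00480) and 1.48 (adjusted p = 0.00111). In the same libraries the log2 fold change of Phlda2 was -2.18 in DIDO3ΔE16 and -0.26 in DIDO3ΔCT+HADIDO3 (limma adjusted p = 0.666), and the latter rested on WT replicate 1, without which it was -0.71 (adjusted p = 0.00759). The maternally expressed Ascl2, Cd81, Tssc4, Kcnq1 and Slc22a18 of the cluster were not altered. Their log2 fold changes in DIDO3ΔE16 were 0.01, 0.15, 1.09, 0.03 and 1.33, in that order. In DIDO3ΔCT+HADIDO3 they were -0.26, -0.09, 0.08, 0.17 and 1.89, the last with a limma adjusted p of 0.0805. Slc22a18, which overlaps the Phlda2 site on the opposite strand, stayed at or below 5.54 TPM. The part of Kcnq1ot1 in these levels was not tested.

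Near Peg10, Sgce, which shares its imprinted promoter region, rose in DIDO3ΔCT+HADIDO3 by 0.96 (log2, limma adjusted p = 0.00918), while Peg10 was at -0.26. Near Peg3, Zim1 (-0.59, limma adjusted p = 0.131) and Usp29 (-0.09, adjusted p = 0.837) did not pass the test in DIDO3ΔCT+HADIDO3. The Mest site overlaps that of Copg2 on the opposite strand, which was not altered in any comparison.

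Beyond the 10 genes, a wider list held 24 paternally and 22 maternally expressed genes, of which 19 and 15 were tested. The maternal list took genes expressed from the maternal allele in some tissue. Whether the listed genes were imprinted in these ESC was not measured. Of the paternally expressed genes, Ndn, Zrsr1, Kcnq1ot1, Dio3 and Mcts2 rose and Nnat and Sfmbt2 fell in DIDO3ΔE16, that is 7 of 19, against 15.1% of all sites tested. In DIDO3ΔCT+HADIDO3, Ndn, Sgce and Kcnq1ot1 rose and Dio3, Mcts2, Zdbf2 and Sfmbt2 fell, again 7 of 19, against 17.3% of all sites. Of the maternally expressed genes, 0 of 15 were altered in either mutant against WT by limma, with 4 and 2 at an unadjusted p under 0.05. The median log2 fold change of the paternally expressed genes was 0.44 and 0.25, and that of the maternally expressed genes 0.01 and -0.09.

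**Figure D4:**
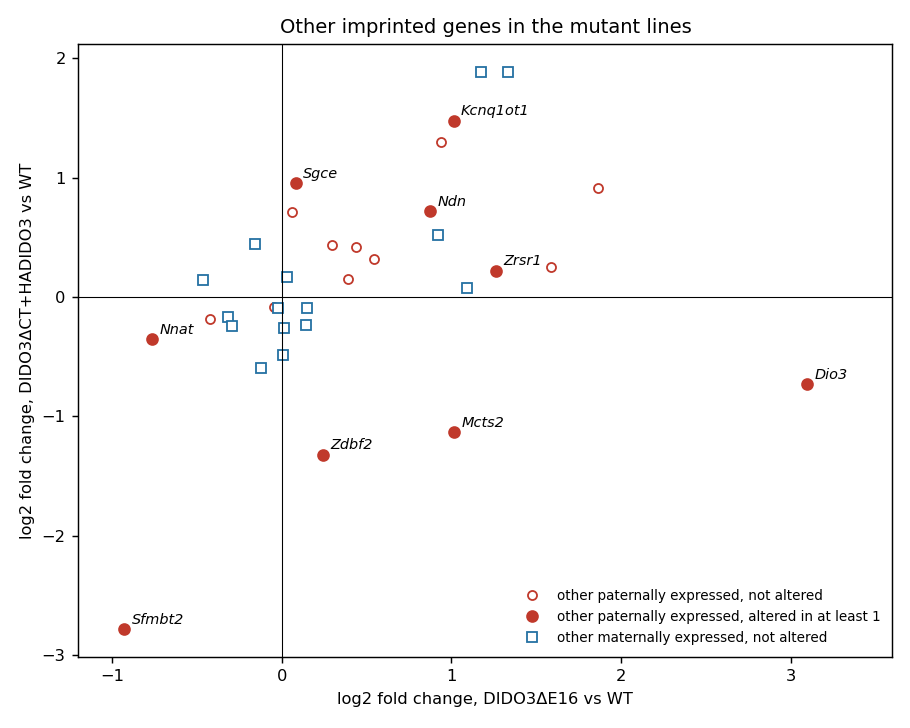
Log2 fold change in DIDO3ΔE16 (x axis) and in DIDO3ΔCT+HADIDO3 (y axis), each against the same WT libraries, for the 19 other paternally expressed genes (red circles) and 15 other maternally expressed genes (blue squares) tested; filled and named points were altered in at least 1 of the 2 comparisons. The named points are all paternally expressed genes, with Dio3 far to the right and Sfmbt2 at the lower left.

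Sfmbt2, a polycomb-related gene, was lower in both mutants, at 71.2, 73.4 and 64.0 TPM in the WT libraries, 33.9, 39.7 and 40.8 TPM in DIDO3ΔE16 and 11.2, 10.4 and 10.7 TPM in DIDO3ΔCT+HADIDO3. The log2 fold changes were -0.93 (limma adjusted p = 0.00144) and -2.78 (adjusted p = 5.38e-05), and the groups did not overlap. Mcts2, a retrogene within an intron of H13 on whose site it shares bases, moved in opposite directions, by 1.02 in DIDO3ΔE16 (limma adjusted p = 0.000331) and -1.13 in DIDO3ΔCT+HADIDO3 (adjusted p = 0.000235). Its reads can be shared with H13 and with its parent gene.

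Zdbf2 fell in DIDO3ΔCT+HADIDO3 against WT (-1.32, limma adjusted p = 0.000958), and its direct difference between the mutants was 1.54 (adjusted p = 0.00586). Zrsr1, a splicing factor retrogene, rose by 1.26 in DIDO3ΔE16 (limma adjusted p = 0.00175) and was at 0.22 in DIDO3ΔCT+HADIDO3 (adjusted p = 0.287). Ndn, a MAGE family gene of the Snrpn cluster, rose by 0.87 (limma adjusted p = 0.00232) and 0.72 (adjusted p = 0.00323), and Nnat, a membrane proteolipid, fell by 0.77 in DIDO3ΔE16 (adjusted p = 0.00124). The direct comparison also altered Gab1 (0.93, limma adjusted p = 4.83e-05) and, as the 1 maternally expressed gene, Commd1 (-0.73, adjusted p = 0.00121).

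Factors known to keep or erase imprints were examined beside these genes. Of 12 listed, 3 were altered in each mutant against WT and 5 between the mutants, where 15.1%, 17.3% and 27.4% of all sites were altered. Trim28, the corepressor that KRAB zinc finger proteins bring to imprinted control regions, held 165, 152 and 167 TPM in the WT libraries, 88.5, 94.5 and 92.0 TPM in DIDO3ΔE16 and 293, 299.9 and 279.7 TPM in DIDO3ΔCT+HADIDO3. The groups did not overlap, and Trim28 fell by 0.88 (log2, limma adjusted p = 0.000401) in DIDO3ΔE16 and rose by 0.74 (adjusted p = 0.000824) in DIDO3ΔCT+HADIDO3. Dppa3, which guards imprints in the zygote, fell in both, with log2 fold changes of -1.35 (limma adjusted p = 0.00614) and -2.19 (adjusted p = 0.000163).

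The de novo methyltransferase Dnmt3a fell by 1.13 in DIDO3ΔCT+HADIDO3 (limma adjusted p = 0.000108) and was at 0.43 in DIDO3ΔE16 (adjusted p = 0.00122), under the fold required. Tet2, which oxidizes methylated cytosine, rose by 0.79 in DIDO3ΔE16 (limma adjusted p = 0.00125). Zfp57, the zinc finger protein that binds the methylated TGCCGC motif at imprinted control regions, was 1.05 higher in DIDO3ΔE16 than in DIDO3ΔCT+HADIDO3 (limma adjusted p = 0.00176), with neither altered against WT. Uhrf1, Zfp445, Ctcf and Tet1 were not altered in any comparison, and Dnmt1 and Dnmt3b had single libraries far from their group. Dnmt3l, the cofactor of the de novo methyltransferases, was at 225 to 232 TPM in WT, 203 to 211 TPM in DIDO3ΔE16 and 56.8, 3.52 and 58.2 TPM in DIDO3ΔCT+HADIDO3, below all other libraries, and did not pass the test there (-3.43, limma adjusted p = 0.0848).

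The Zfp57 motif was looked for in promoter windows of 300 bases, of which the last 50 follow the annotated start (RefSeq, GRCm38.p6). Promoters were given for 8 of the 10 genes. TGCCGC, or GCGGCA on the opposite strand, was found for Mest, Igf2, Plagl1 and Grb10, that is for 4 of 8 genes. By promoter, 5 of the 14 promoters of these genes held it, and 11.6% of all 32851 promoters. The share by gene over all genes is not given here, and control regions outside the windows were not searched. Mest, which also held the motif, was altered in no comparison, and its windows are not shown. The windows of 30 bases below, on the strand of the gene, show it in capitals at Plagl1, Igf2 and Grb10, which were altered in at least 1 comparison.
Plagl1 promoter, chr10:13090730-13090759 (+): ctggcgtgttgcGCGGCAaagcccacggca
Igf2 promoter, chr7:142661224-142661253 (-): tacggtgtcccaGCGGCAgcacagattttg
Grb10 promoter, chr11:12037379-12037408 (-): gggtgcggggagGCGGCAggaagggaaggg

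Markers of other cells moved with the groups. Fn1 made up the main part of the fibroblast sum. Its site with the highest mean, which lists 7 features, was at 27.5 TPM in DIDO3ΔE16 replicate 2 and at 491 TPM or more in the other libraries. In DIDO3ΔE16 against WT the log2 fold change was -1.58 at that site (limma adjusted p = 0.409). It was -0.45 for the Fn1 gene sum (adjusted p = 0.210), so the low value does not hold for the whole gene. Pdgfrb was at 4.99 to 5.28 TPM in WT and 38.5 to 41.8 TPM in DIDO3ΔCT+HADIDO3, while Col1a2 went from 16.7 to 20.0 TPM in WT to 0.229 to 0.246 TPM there. Col3a1 and Twist2 were listed at 0 in every DIDO3ΔCT+HADIDO3 library and Lum was at 0 in 8 of 9 libraries.

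Of the other markers, the 5 of primitive endoderm summed to 58.7 to 84.3 TPM in WT, 25.5 to 34.4 TPM in DIDO3ΔE16 and 24.6 to 27.3 TPM in DIDO3ΔCT+HADIDO3, and 3 and 4 of them fell in the mutants. The 5 of trophoblast, the lineage in which Phlda2 is best known, summed to 49.6 to 54.4, 74.7 to 81.4 and 37.5 to 43.7 TPM, with 2 of 4 tested higher in DIDO3ΔE16 and 1 of 4 lower in DIDO3ΔCT+HADIDO3. Of the 10 ESC markers, 0 were altered by limma in DIDO3ΔE16 (3 at an unadjusted p under 0.05) and 3 in DIDO3ΔCT+HADIDO3. Nanog and Esrrb could not be judged, since their WT libraries held 664, 676 and 3.10 TPM and 5.18, 1155 and 8.78 TPM. Their log2 fold changes in DIDO3ΔE16 were 3.20 ± 2.33 and 4.99 ± 2.25 (SE). The trophoblast sum was thus highest in DIDO3ΔE16, where Phlda2 was lowest, and its part in the result was not tested. Eomes was the largest member of that sum, at 29.3 to 30.4 TPM in WT and 54.1 to 60.0 TPM in DIDO3ΔE16. Krt8 went the other way, at a log2 fold change of -0.42 in DIDO3ΔE16 (limma adjusted p = 0.00788).

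**Figure D5:**
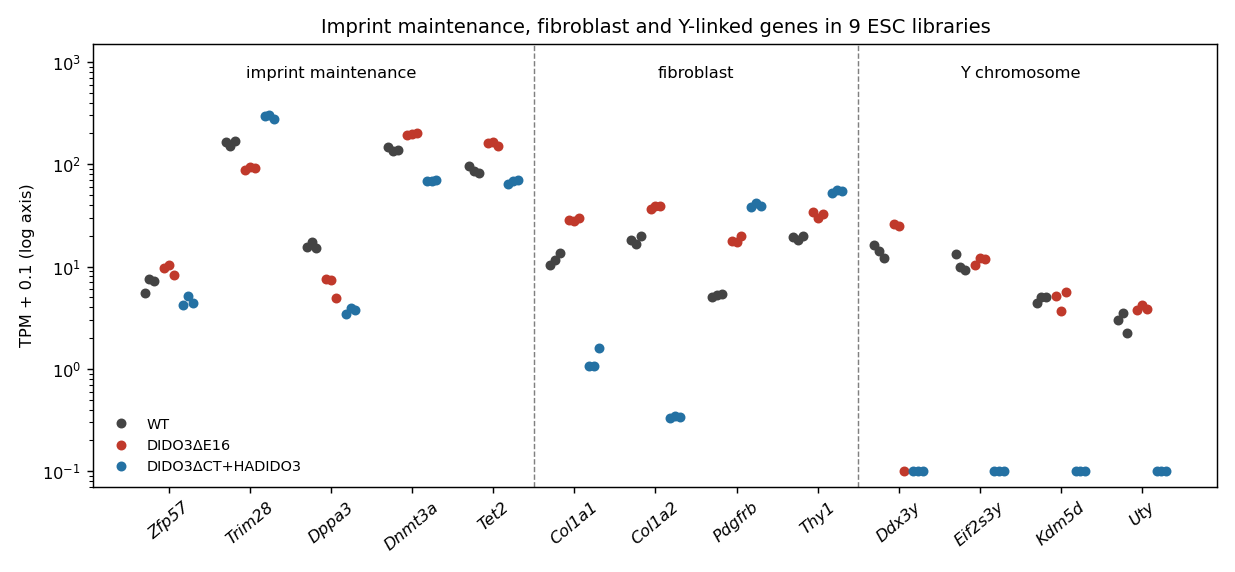
TPM plus 0.1 (log axis) in the 9 libraries of 5 imprint maintenance genes, 4 fibroblast markers and 4 Y-linked genes; points are libraries, colored by group as in the plot of imprinted gene levels. Dnmt3a and Dppa3 are lowest in DIDO3ΔCT+HADIDO3, and Col1a1 and Col1a2 are highest in DIDO3ΔE16 and near the floor in DIDO3ΔCT+HADIDO3. At the sites plotted, the Y-linked genes sit at 0 in DIDO3ΔCT+HADIDO3, and Ddx3y also in DIDO3ΔE16 replicate 3.

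As a last description, the site of another gene with the closest pattern over the 9 libraries was found for each imprinted gene, as the smallest root mean square difference of centred log2 values among 17646 or 17647 sites. It was Trnp1 for Peg3 (0.0611), Ctnnd1 for Peg10 (0.0223), Lamtor2 for Igf2r (0.0283) and Prdx4 for Mest (0.0529). Plagl1 was closest to Hoxc4 (0.154), Cdkn1c to Zfp972 (0.172), Phlda2 to Rnf167 (0.273) and Igf2 to Crebzf (0.333). The closest to Grb10 was Stx3, at 0.760, the largest of these differences. Dlk1 was too low for the comparison.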

How the data were processed

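Total RNA of the ESC was sequenced as paired-end stranded RNA-seq. Per the labels and the study's methods, the authors aligned reads to mm10 with BWA 0.7.15, removed duplicates, and ran StringTie 1.3.3 on UCSC 3′UTR annotations extended by 2 kb, which gave the deposited TPM values and the coverage per feature. TPM are not counts, and whole reads were not recovered, so limma 3.58.1 (R 4.3.3) was used in place of a count model.

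Features were named from GENCODE release M21 by their 3′ end and exon overlap, and 42255 of 43031 received a symbol. TPM of features with identical coordinates and strand were summed, since StringTie splits their reads arbitrarily. Each gene was represented by its site with the highest mean over the 9 libraries. Scaling between libraries used the mean log2 ratio after dropping the 30% highest and 30% lowest ratios, and sites above 0 in every library of a comparison were fitted as log2(TPM + 0.1), with a trend in the variance and robust moderation, so that fold changes of low genes are understated. All 10 genes passed this filter. Thresholds were an absolute log2 fold change of 0.7 and a Benjamini-Hochberg adjusted p of 0.05. On simulated data for DIDO3ΔE16 against WT (21063 sites, 200 changed), 42.2% of sites changed by a log2 of 1 and 67.6% of those changed by 2 were called, with 4.2 false calls on average.

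The genes, lists and tests were chosen with earlier results of these data known. Named beyond the 10 genes were listed genes altered in at least 1 comparison, cluster neighbors within 1 Mb, and markers, and Nanog, chosen after its values were seen. No site was found for Snurf, Peg13, Airn, H19, Meg3, Rian, Mirg and Xist. Alternatives covered pseudocount, filter, scaling, libraries, covariates, block, moderation, summing and thresholds.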

Additional observations from a re-analysis of the deposited data

Results flagged for a closer look

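Setting DIDO3ΔE16 directly against the reconstituted line is the test of whether a gene's change from WT differs between the lines, since both share the WT libraries (limma, Benjamini-Hochberg adjusted, 3 libraries a group). Among the imprinted genes it gave log2 differences of 1.31 for Peg3, 1.10 for Dlk1, 1.48 for Plagl1, 1.16 for Igf2, 4.0 for Grb10 and -1.94 for Phlda2. In the wider list the differences were -0.90 for Sgce, 1.02 for Zrsr1, 3.80 for Dio3, 2.13 for Mcts2, 1.54 for Zdbf2, 1.83 for Sfmbt2, 0.93 for Gab1 and -0.73 for Commd1. Among imprint maintenance genes they were 1.05 for Zfp57, -1.65 for Trim28, 0.82 for Dppa3, 1.54 for Dnmt3a and 1.24 for Tet2. The lines also differed in Y-linked and fibroblast genes, and the part of these in the differences was not tested.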

How the results depend on the processing

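Over all alternatives, Dlk1 and Plagl1 in DIDO3ΔE16 and Peg3 in DIDO3ΔCT+HADIDO3 were altered in every alternative that tested them except the replicate block. The numbers did not pair the libraries (same-numbered libraries correlated at 0.0039 to 0.037 in their deviations). With the replicate block, limma altered 0 sites and 0 of the 10 genes in both comparisons with WT (6198 and 6915 sites, and 4 and 5 of the genes, at an unadjusted p under 0.05), and in that fit Igf2 (0.23) and Grb10 (-1.76) reversed in DIDO3ΔE16 and Phlda2 (0.026) in DIDO3ΔCT+HADIDO3. In both comparisons with WT, WT replicate 4 and replicate 3 of the mutant had no library of the same number in the other group. They therefore added nothing to the difference between groups in that fit. The loss of calls and the reversals there cannot be told apart from this design and do not test the results. In the direct comparison, where every number occurred in both groups, the block left 5183 sites and 6 genes.

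Leaving out each library gave 2725 to 2955 sites and 2 to 3 genes in DIDO3ΔE16, 3150 to 3491 sites and 1 to 2 genes in DIDO3ΔCT+HADIDO3, and 5466 to 5552 sites and 5 to 7 genes in the direct comparison. In DIDO3ΔE16, Igf2 (-0.65 to 0.14) and Grb10 (-1.72 to 1.71) reversed without WT replicate 4 and Cdkn1c (-0.073 to 0.53) without DIDO3ΔE16 replicate 1. In DIDO3ΔCT+HADIDO3, Mest (-0.046 to 0.033) reversed without WT replicates 2 and 3 or DIDO3ΔCT+HADIDO3 replicate 2, and Plagl1 (-0.26 to 0.065) without DIDO3ΔCT+HADIDO3 replicate 1. Phlda2 in DIDO3ΔCT+HADIDO3 was altered without WT replicate 1 (-0.71, adjusted p = 0.00759), Igf2 without WT replicates 2 and 3 (-1.83, adjusted p = 0.0102), and Cdkn1c in the direct comparison without DIDO3ΔE16 replicate 3 (1.10, adjusted p = 0.00137).

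With the first 4 characters of the flow cell identifier as a covariate, Igf2 (0.58) and Grb10 (-1.73) reversed in DIDO3ΔE16, as they did against the WT library that shares these with the mutants (0.57 and -1.74), where 3 genes were altered in DIDO3ΔCT+HADIDO3. Summed over all features of a gene, Cdkn1c reversed in DIDO3ΔE16 (-0.62) and in the direct comparison (-0.057), and Plagl1 in DIDO3ΔCT+HADIDO3 (0.0049). By single features, which depend on the split of reads between identical features, Igf2 reversed in the direct comparison (-0.073). With quantile normalization Igf2r reversed in DIDO3ΔE16 (0.045). In DIDO3ΔCT+HADIDO3, 2 genes were altered with a mean TPM of at least 1, quantile normalization, 1 fit of all libraries, gene sums or a 1.5-fold threshold, since Igf2, or Cdkn1c at 1.5-fold, passed. At an adjusted p under 0.01, 2111 sites were altered in DIDO3ΔE16.

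An alternative added after seeing the data kept only sites of 1 feature that share no base with another. It altered 1889 of 9507, 2254 of 9394 and 3251 of 9571 sites in the 3 comparisons, and 0 of the 2 genes it could test (Peg10 and Igf2r) by limma, with 0, 2 and 2 at an unadjusted p under 0.05. The causes of these changes were not tested. Dlk1, Rtl1 and Kcnq1ot1 were near or under 1 TPM in WT, and depth limits Dlk1 and Rtl1. The Kcnq1ot1 site reaches from base 143211111 to 143295759 of chromosome 7. As TPM is a value per length, its low TPM alone does not show that few bases stood behind it.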
